A study of Mus musculus with 42 samples.

Results

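Primordial germ cell-like cells (PGCLCs) that had themselves been exposed to 1 µM bisphenol S (BPS) were compared with PGCLCs given only the ethanol vehicle. The groups were taken from the sample labels: the 3 libraries labelled PGCLC con and the 3 labelled PGCLC BPS 1uM, so 6 of the 42 libraries of the series, described over the 22186 genes listed in the expression table. All 6 came from 1 mouse line of induced pluripotent stem cells (iPSCs), male, made from the embryonic fibroblasts of 1 fetus that carried an inducible reprogramming transgene. The iPSCs were turned into epiblast-like cells and then into floating aggregates with BMP4, SCF, EGF and LIF, in which a small minority of cells become PGCLCs. BPS or ethanol was given for 24 h, washed out and followed by 8 h without it, and the cells were sorted for FUT4 and ITGB3 before poly(A) RNA sequencing. Each replicate was a separate batch of plates of that line, so the p-values measure the spread between cultures and not between animals or lines.

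PGCLCs are the culture counterpart of primordial germ cells, the embryonic founders of sperm and eggs. They are set aside from the epiblast by BMP signalling, which turns on PRDM1, PRDM14 and TFAP2C, and they regain part of the naive pluripotency network while shutting off the mesodermal programme of their neighbours. BPS is a replacement for the estrogen mimic bisphenol A. The question put by the design is which transcripts differ when the germ cell-like cells themselves meet the compound.

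The 6 libraries held between 26693847 and 35632730 counted reads. Vehicle replicate 1 stood apart, with 1.84% of its reads in rRNA-type transcripts against 0.0725% to 0.493% in the other 5. The germ cell label was checked against Prdm1, Tfap2c and Dppa3. All 3 were detected in every library. Prdm1 stood at 51.2, 49.8 and 51.1 counts scaled to library size (CPM) in vehicle and at 47.6, 41.5 and 44.3 CPM with BPS. Tfap2c stood at 116, 122 and 122 CPM in vehicle and at 115, 102 and 103 CPM with BPS. Dppa3, a maternal and germ cell factor, ranged from 16.7 to 21.9 CPM and the groups overlapped. Markers of other fates were present too, since mesoderm markers summed to between 939.6 and 1347 CPM and naive pluripotency markers to between 3301 and 4132 CPM. Because these are bulk libraries, fewer cells of a type and less RNA per cell cannot be told apart.

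Many transcripts differed by small amounts between the BPS and the vehicle libraries. A limma linear model on the log2 values tested 16342 genes, those with at least 0.5 CPM in at least 3 libraries. At an adjusted p of 0.05 it called 4354 of them (26.6%), of which 2511 were higher with BPS (15.4% of those tested) and 1843 lower (11.3%). The median change of the called genes was 1.18-fold. At least 1.5-fold change was reached by 385 called genes, 105 higher and 280 lower, and at least 2-fold by 71, 13 higher and 58 lower. On this scale small increases outnumbered small decreases, while among the larger changes decreases outnumbered increases. The split depended on scaling: 57.7% of the calls were higher on the deposited scale, 49.6% after median ratio rescaling and 41.1% after upper quartile rescaling, which shifted the median log2 change of all genes from 0.015 to -0.02. The 3 BPS libraries did not overlap the 3 vehicle libraries at 6749 genes (41.3%), which include 97.2% of the called genes. Separation was also a condition for naming the largest changes, so it adds no support at those genes. This holds wherever it is stated below for Bnip3, Ankrd37, Ndrg1, Pfkfb3, Bhlhe40, Bhlhe41, Ciart, Mixl1, Nkd1, Fosb, Crebrf and Irf2. Without vehicle replicate 1 the model called 3203 genes, of which 3075 were among the 4354. Leaving out vehicle replicate 2 or 3 took the lower genes from 1843 to 1198 or 1227. With all 42 libraries of the series in the fit, where the spread between libraries is estimated over every cell type, 1630 genes were called. No called gene changed sign under any of these settings.

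**Figure D1:**
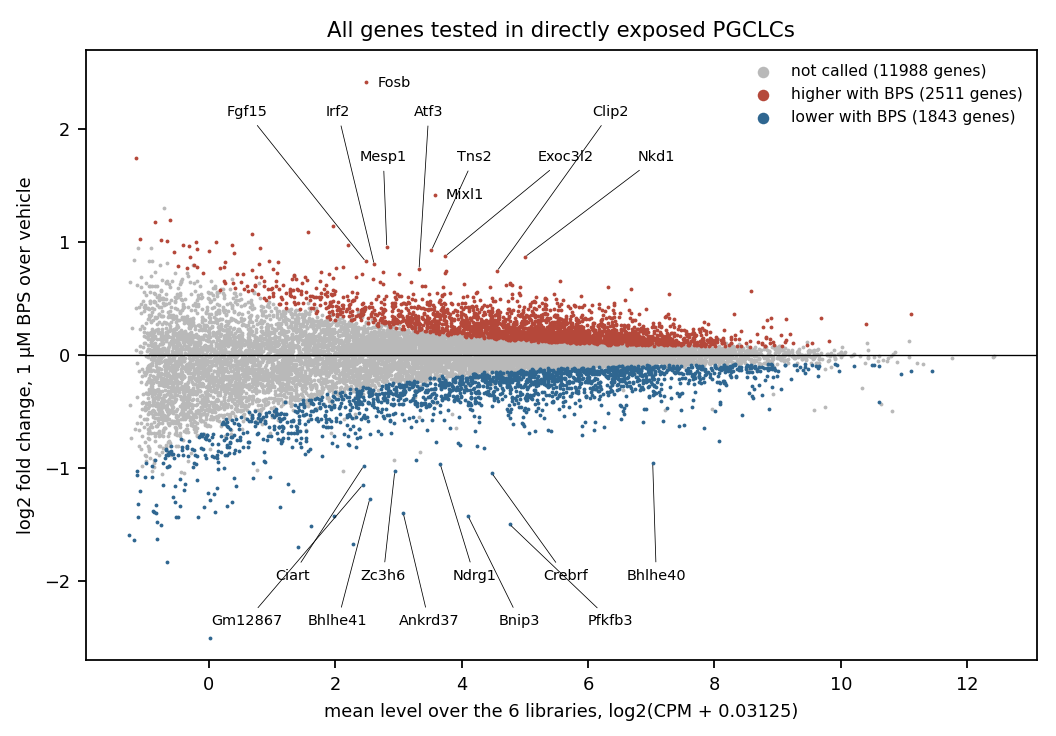
Each point is 1 of the 16342 genes tested, with its mean level over the 6 libraries on the horizontal axis, as log2 CPM, and its log2 fold change with 1 µM BPS on the vertical axis. Red and blue points are the 2511 higher and 1843 lower genes, and the labels mark the 10 largest increases and 10 largest decreases among called genes with a mean of at least 5 CPM and groups that do not overlap; Fosb lies highest at 2.41 and Pfkfb3 lowest of the labelled genes at -1.50.

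Genes that cells switch on when oxygen is short were lower in exposed cells. The list of hypoxia-response genes, the targets of the oxygen-sensing factor HIF1, had 17 tested members. Of these, 15 were lower with BPS (88.2%, against 11.3% of all tested genes) and none was higher. The median log2 change was -0.62 beside 0.015 over all genes. All 17 had a negative estimate. The count was 15 without vehicle replicate 1 and 12 with all 42 libraries in the fit. Bnip3, a mitophagy receptor, stood at 22.9, 26.1 and 25.9 CPM in vehicle and at 8.07, 10.2 and 9.64 CPM with BPS. The change of -1.42 ± 0.08 (SE) on the log2 scale, 2.68-fold lower, had an adjusted p of 3.53e-08. Ankrd37, an ankyrin-repeat protein induced by hypoxia, stood at 12.7, 12.5 and 11.4 CPM in vehicle and at 4.71, 4.71 and 4.40 CPM with BPS, a log2 change of -1.40 ± 0.08 (adjusted p = 3.85e-08). Kdm3a, a histone H3 lysine demethylase and HIF1 target, stood at 215, 227 and 222 CPM in vehicle and at 140, 146 and 147 CPM with BPS (log2 change -0.62 ± 0.03). The groups did not overlap at either gene. Ddit4, an inhibitor of mTORC1, stood at 343, 341 and 325 CPM in vehicle and at 180, 217 and 199 CPM with BPS (log2 change -0.76 ± 0.05). Ndrg1, a stress-responsive differentiation gene, was at 16.6 to 16.8 CPM in vehicle and at 8.10 to 8.81 CPM with BPS. The 2 members not called were P4ha2 and Mxi1, at -0.06 and -0.05 log2, named after their values were seen.

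Bnip3, Ankrd37 and Pfkfb3 had the 3 largest decreases among called genes with a mean of at least 5 CPM and groups that do not overlap. Of these, Bnip3 and Ankrd37 are on the hypoxia list and Pfkfb3 is on the glycolysis list. The sequences just upstream of them are shown because the core of the hypoxia response element, ACGTG, is known, and readers can see where it stands. They are the 250 bases before the start that the RefSeq promoter table gives for each gene (build GRCm38.p6, all on the minus strand, printed 5′ to 3′ on the gene's strand): chr7:138909507-138909756 for Bnip3, chr8:45999851-46000100 for Ankrd37 and chr2:11553930-11554179 for Pfkfb3. For Ankrd37 and Pfkfb3 the window lies wholly or partly inside the gene's full annotated span, which has a further upstream start. Capitals mark ACGTG and GCGTG, the core of the xenobiotic response element, on either strand.
Bnip3: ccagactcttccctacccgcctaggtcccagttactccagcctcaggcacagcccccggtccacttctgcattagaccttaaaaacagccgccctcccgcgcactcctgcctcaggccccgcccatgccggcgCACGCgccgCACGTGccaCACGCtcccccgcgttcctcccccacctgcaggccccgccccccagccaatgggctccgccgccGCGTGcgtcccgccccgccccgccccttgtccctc
Ankrd37: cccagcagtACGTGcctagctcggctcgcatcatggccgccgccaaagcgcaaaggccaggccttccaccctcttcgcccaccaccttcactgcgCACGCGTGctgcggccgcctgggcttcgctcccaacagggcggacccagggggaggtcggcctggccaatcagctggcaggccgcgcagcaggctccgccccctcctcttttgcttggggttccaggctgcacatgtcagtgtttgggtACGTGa
Pfkfb3: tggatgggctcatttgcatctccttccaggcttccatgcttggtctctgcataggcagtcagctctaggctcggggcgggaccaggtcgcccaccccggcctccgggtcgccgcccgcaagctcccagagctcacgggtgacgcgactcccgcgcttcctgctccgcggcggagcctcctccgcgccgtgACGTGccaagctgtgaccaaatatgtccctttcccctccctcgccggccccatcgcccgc

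ACGTG on either strand was present in 9 of the 15 hypoxia-list promoters that the table holds (60%), in 21.2% of the promoters of all tested genes, in 19.6% of those of higher genes and in 23.7% of those of lower genes. The search for this motif was chosen after the hypoxia genes had been seen, a match is only a run of letters, and no test was run. GCGTG was present in 11 of the same 15 promoters (73.3%), in 43.8% of all tested promoters, and in 46% of higher and 45.8% of lower ones. The hypoxia-list promoters had a median GC content of 69.6%, against 59.6% for all tested, and its part in both motif shares was not tested. AGGTCA, the half-site of the estrogen response element, was found in 10.6% of all, 8.42% of higher and 12.2% of lower ones, and the AP-1 motif TGACTCA in 2.93%, 3.03% and 4.06%. The cyclic AMP response element TGACGTCA stood in 2.63% of all tested promoters, 2.62% of higher and 2.53% of lower ones. These shares cover the 73.6% of tested genes with a promoter in the table.

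Genes of glucose uptake and glycolysis were lower as well. Of 23 tested glycolysis genes, 14 were lower with BPS (60.9%, against 11.3% of all tested genes) and none higher. Their median log2 change was -0.13, and 7 were lower with all 42 libraries in the fit. Pfkfb3, which makes the activator of phosphofructokinase, stood at 40.1, 38.1 and 41.6 CPM in vehicle and at 12.6, 15.6 and 14.3 CPM with BPS. It had the largest decrease of the named genes, at -1.50 ± 0.07 on the log2 scale or 2.82-fold lower (adjusted p = 9.60e-09). Hk2, the inducible hexokinase, stood at 277, 278 and 281 CPM in vehicle and at 171, 185 and 179 CPM with BPS (log2 change -0.64 ± 0.03). The glucose transporter gene Slc2a1 stood at 394, 406 and 422 CPM in vehicle and at 274, 286 and 288 CPM with BPS. Slc2a3, the other main glucose transporter gene, went from 1759 to 1781 CPM in vehicle down to 1316 to 1349 CPM with BPS. The groups were apart at all 4 genes. The lactate dehydrogenase gene Ldha, named after its values were seen, had a log2 change of -0.04 (adjusted p = 0.311). The 53 tested nuclear genes of oxidative phosphorylation had a median log2 change of 0.0056. Of these, 2 were higher (3.77%, against 15.4% of all tested genes) and none lower. Both calls were lost when any 1 of the vehicle libraries or BPS replicate 2 was dropped. Dropping BPS replicate 1 left 3 of them lower, and upper quartile rescaling left 2 lower and none higher.

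The summed level of the hypoxia list also set the vehicle group apart from other PGCLCs of the series. It was 1092, 1127 and 1097 CPM in the 3 vehicle libraries and 719.3, 789.4 and 755.7 CPM in the 3 BPS libraries. In PGCLCs derived from iPSCs of a separate experiment it was 715.4, 746.1 and 715.6 CPM in vehicle and 762.3, 755.3 and 693.9 CPM after BPS exposure of the iPSCs. The range of the BPS libraries overlapped that of those other PGCLCs, and the vehicle libraries were above all of them. Summed glycolysis genes were also highest in vehicle, at 8669 to 8829 CPM. They were at 7428 to 7614 CPM with BPS and at 6319 to 6860 CPM in the derived PGCLCs. These levels were set side by side across experiments, with no test of that difference. Exposure and any other difference between the vehicle and the BPS cultures cannot be told apart, so lower with BPS means only lower than these vehicle libraries.

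Genes of the circadian clock were lower in part. Of 18 tested clock genes 10 were lower and 1 higher (55.6% and 5.56%, against 11.3% and 15.4% of all tested genes). Their median log2 change was -0.24, and 10 were lower both without vehicle replicate 1 and with all 42 libraries in the fit. Bhlhe40, a repressor of clock transcription that hypoxia also induces, stood at 168, 176 and 170 CPM in vehicle and at 77.7, 98.6 and 90.1 CPM with BPS. This is a log2 change of -0.95 ± 0.06 (adjusted p = 5.37e-08). Its paralogue Bhlhe41 stood at 8.96, 7.27 and 8.35 CPM in vehicle and at 3.17, 4.26 and 2.80 CPM with BPS (log2 change -1.27 ± 0.14). Nr1d2, one of the REV-ERB nuclear receptors, stood at 40.4, 46.6 and 44.3 CPM in vehicle and at 27.4, 27.3 and 27.7 CPM with BPS. The other REV-ERB gene Nr1d1 stood at 12.6, 13.5 and 14.1 CPM in vehicle and at 7.96, 8.45 and 9.04 CPM with BPS. Ciart, a repressor of the CLOCK complex, was at 6.72 to 7.67 CPM in vehicle and at 3.13 to 4.64 CPM with BPS. The groups were apart at each of these genes. The 1 higher member, Per3 (0.29 log2, adjusted p = 0.0421), named because it was alone, lost its call without BPS replicate 2 or 3 or vehicle replicate 2 or 3. As for the hypoxia list, the summed clock genes were highest in the vehicle libraries, at 473.2 to 489.1 CPM, lower with BPS at 325.9 to 354 CPM, and at 292.4 to 315.7 CPM in the 6 libraries of PGCLCs derived from iPSCs.

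**Figure D2:**
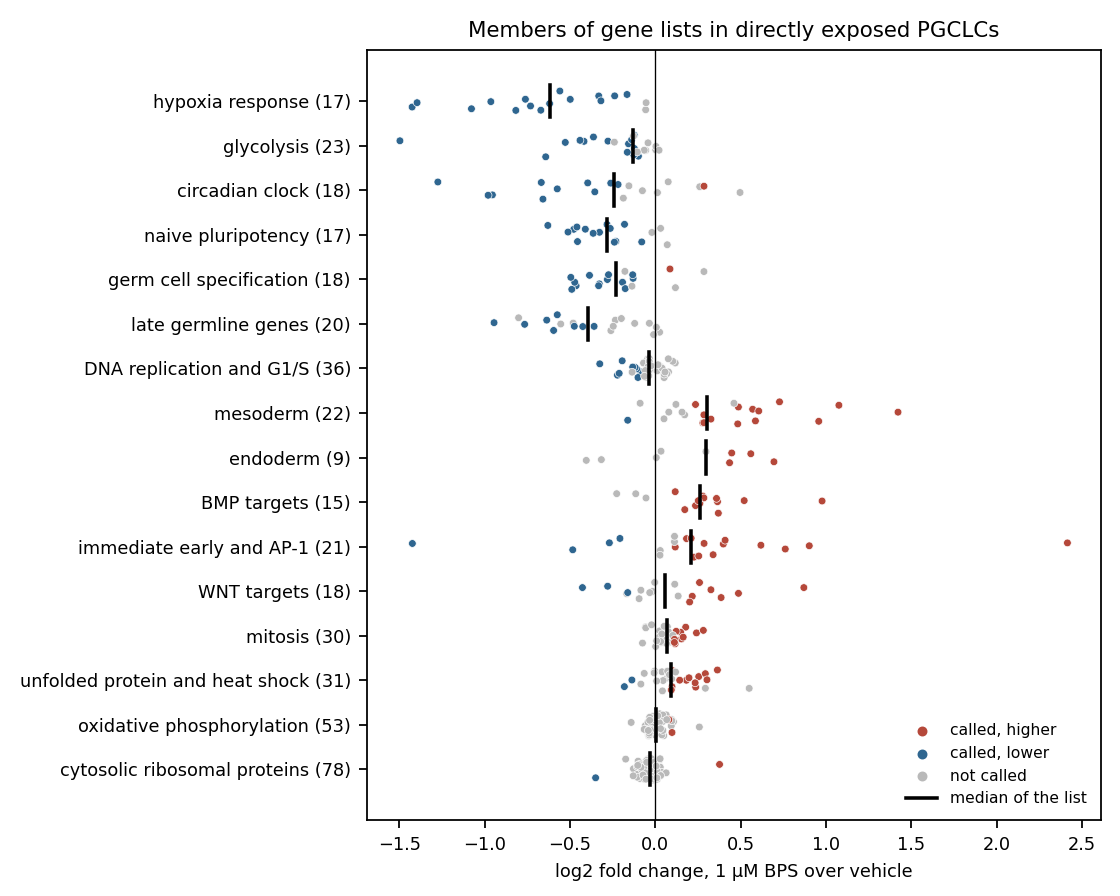
Each point is 1 tested gene of a list, placed on the horizontal axis by its log2 fold change with 1 µM BPS over vehicle; the number after each list name is its count of tested genes, the black bar its median, and colour shows the call. The hypoxia list lies wholly left of 0 with a median of -0.62, the naive pluripotency list has a median of -0.28, mesoderm lies mostly to the right with 0.31, and oxidative phosphorylation and ribosomal proteins have medians of 0.0056 and -0.03.

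The naive pluripotency network was lower in exposed cells. Of its 17 tested genes 14 were lower (82.4%, against 11.3% of all tested genes) and none higher. The median log2 change was -0.28. The lower count was 13 without vehicle replicate 1 and 5 with all 42 libraries in the fit, and 1 member was higher without BPS replicate 1. Nr0b1, which encodes the nuclear receptor DAX1, stood at 72.7, 71.1 and 75.3 CPM in vehicle and at 49.5, 46.1 and 46.0 CPM with BPS (log2 change -0.63 ± 0.04, adjusted p = 8.68e-08). Esrrb, an orphan nuclear receptor that binds the same half-site as estrogen receptors, stood at 530, 550 and 547 CPM in vehicle and at 407, 375 and 386 CPM with BPS (log2 change -0.48 ± 0.03), a call that was lost with all 42 libraries. Klf4 stood at 227, 234 and 231 CPM in vehicle and at 176, 160 and 169 CPM with BPS. These 3 factors hold up the naive state, and each had all BPS libraries below all vehicle libraries. Tfcp2l1, a further naive factor, had a log2 change of -0.41 ± 0.03. The 3 genes of the list that were not called were Nr5a2, Sall4 and Lin28a, at -0.02, 0.03 and 0.07 log2. The primed epiblast list had no common direction. Of 14 genes 4 were higher and 3 lower (28.6% and 21.4%, against 15.4% and 11.3% of all tested genes).

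Genes of germ cell specification were lower by smaller steps. Of 18 tested, 13 were lower and 1 higher (72.2% and 5.56%, against 11.3% and 15.4% of all tested genes). The median log2 change was -0.23. The 1 higher member, Ifitm3 (0.09 log2, adjusted p = 0.0411), lost its call when any library but BPS replicate 1 was dropped and under both rescalings. The lower count was 11 without vehicle replicate 1, 7 with no filter on low values and 1 with all 42 libraries in the fit. Klf5 stood at 112, 110 and 108 CPM in vehicle and at 80.4, 74.8 and 79.8 CPM with BPS (log2 change -0.49 ± 0.04), and it kept its call throughout. Nanog stood at 409, 426 and 416 CPM in vehicle and at 349, 320 and 325 CPM with BPS (log2 change -0.33 ± 0.03). Prdm14, which protects the germ cell fate and the naive state, stood at 42, 42.4 and 43.5 CPM in vehicle and at 33.3, 28.7 and 30.8 CPM with BPS. Kit, the receptor for SCF, had a log2 change of -0.33 ± 0.04. The groups were apart at all 4 genes, and the last 3 lost their call with all 42 libraries. The defining markers Prdm1 and Tfap2c had log2 changes of -0.19 ± 0.05 (adjusted p = 0.00805) and -0.18 ± 0.04 (adjusted p = 0.00786), and both calls were lost with all 42 libraries or with no filter. Dppa3 had a log2 change of -0.14 ± 0.08 (adjusted p = 0.222). Of the sort markers, Itgb3 was at -0.28 ± 0.10 (adjusted p = 0.0456), a call lost in most alternatives, and Fut4 at 0.29 ± 0.11 (adjusted p = 0.0602). The late germline genes are meiotic and piRNA genes that are low in these cells. Of 20 tested, 8 were lower (40%, against 11.3% of all tested genes) and none higher. Piwil2, a piRNA-binding protein, had a log2 change of -0.42 ± 0.08 and Dazl, a germ cell translation factor, one of -0.64 ± 0.12. That count of 8 went to 4 without vehicle replicate 2, 5 without BPS replicate 2 and 1 with all 42 libraries.

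**Figure D3:**
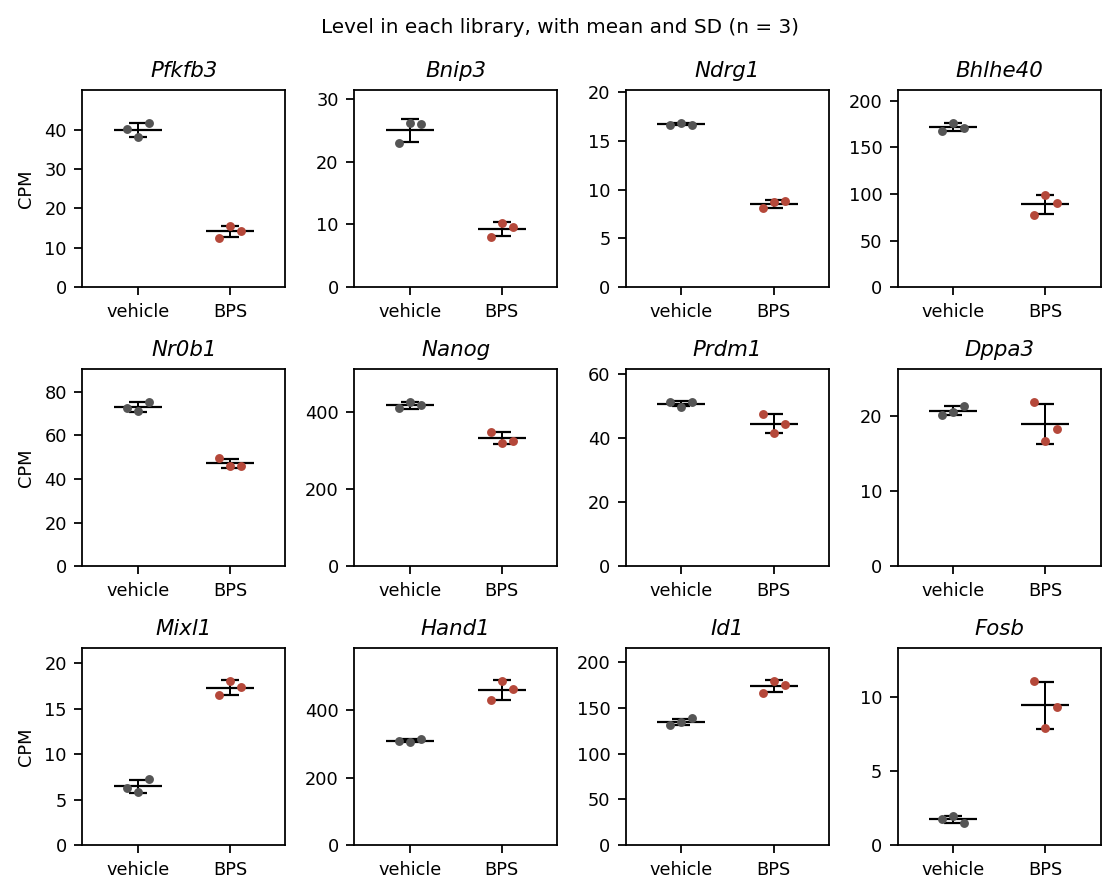
Level of 12 genes in each of the 6 libraries in CPM on an axis that starts at 0, for vehicle in grey and 1 µM BPS in red, with the mean as a line and the SD as a bar (n = 3). Pfkfb3, Bnip3, Ndrg1, Bhlhe40, Nr0b1 and Nanog are lower and Mixl1, Hand1, Id1 and Fosb higher in every BPS library than in any vehicle library; the groups also do not overlap at Prdm1, and they overlap at Dppa3.

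Mesodermal transcription factors were higher in exposed cells. Of 22 tested mesoderm genes 14 were higher and 1 lower (63.6% and 4.55%, against 15.4% and 11.3% of all tested genes). The median log2 change was 0.31. The higher count was 13 without vehicle replicate 1 and 6 with all 42 libraries in the fit. Mixl1, a homeobox gene of the primitive streak, stood at 6.27, 5.86 and 7.30 CPM in vehicle and at 16.5, 18.1 and 17.4 CPM with BPS. It more than doubled in every BPS library against every vehicle library, with a log2 change of 1.42 ± 0.09 or 2.68-fold (adjusted p = 3.53e-08). Hand1, a factor of extraembryonic mesoderm and heart, stood at 308, 305 and 314 CPM in vehicle and at 429, 487 and 464 CPM with BPS (log2 change 0.57 ± 0.04), a call lost with all 42 libraries. Evx1, of the posterior streak, stood at 60.6, 66 and 62.7 CPM in vehicle and at 87.1, 105 and 97.2 CPM with BPS. Cdx2, a posterior and trophoblast factor, stood at 78.3, 82.9 and 79 CPM in vehicle and at 108, 117 and 112 CPM with BPS. The groups were apart at all 4. Mesp1, the master gene of cardiac mesoderm, was among the largest increases at 0.96 ± 0.09 log2, and it too lost its call with all 42 libraries. The member that was lower was Cdx1 (-0.16 log2), named because it was alone, and its call was lost without vehicle replicate 1 or 2. Of 9 tested endoderm genes 4 were higher (44.4%, against 15.4% of all tested genes) and none lower. The 4 were Gata4, Gata6, Sox17 and Sox7, at 0.44, 0.45, 0.56 and 0.70 log2, and 1 stayed called with all 42 libraries.

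Some markers of other cell types went opposite to the germ cell and naive genes, being higher with BPS. The sums of all such lists are therefore given whole. Mesoderm markers, all 22 above the filter, summed to 939.6 to 963.7 CPM in vehicle and to 1195 to 1347 CPM with BPS. Endoderm markers summed to 45.6 to 46.9 CPM in vehicle and to 51.9 to 64.3 CPM with BPS, with Foxa1 and Apoa1 under the filter. Trophoblast markers summed to 509.2 to 523.9 CPM and to 621.2 to 671.1 CPM. In these 3 lists the groups did not overlap. Hand1 is on both the mesoderm and the trophoblast list, and it rose by more CPM than the whole trophoblast sum. Of the 9 trophoblast genes 2 were higher and 1 lower (22.2% and 11.1%, against 15.4% and 11.3% of all tested genes). Their median log2 change was 0.07. Fibroblast and feeder markers summed to 2173 to 2251 CPM in vehicle and to 2215 to 2602 CPM with BPS, with Lum, Dcn and Postn under the filter. Neural markers summed to 100.4 to 107.5 CPM and to 104.3 to 111.4 CPM, and primed epiblast markers to 505.4 to 517 CPM and to 498.9 to 567.7 CPM, so these 3 lists overlapped. Blood and endothelial markers were a little lower with BPS, at 36.7 to 38.9 CPM against 41.0 to 43.4 CPM. No marker of any of these lists was at 0 reads in all 6 libraries. Among the BPS libraries, replicate 1 had the highest naive sum (3595 CPM against 3301 and 3359) and the lowest mesoderm sum (1195 CPM against 1347 and 1277). The part of the cell mixture in the changes was not tested.

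Targets of BMP signalling, the cue that specifies germ cells and mesoderm alike, were higher. Of 15 tested targets 12 were higher (80%, against 15.4% of all tested genes) and none lower. The median log2 change was 0.26. The higher count was 11 without vehicle replicate 1 and 4 with all 42 libraries in the fit, and 1 target was lower without BPS replicate 1 and after either rescaling. Msx1, Msx2 and Gata2 are members of the mesoderm list as well. Id1, the immediate BMP target, stood at 132, 134 and 138 CPM in vehicle and at 166, 179 and 175 CPM with BPS (log2 change 0.36 ± 0.03). The inhibitory SMAD gene Smad6 stood at 45.1, 49.3 and 52.2 CPM in vehicle and at 68.6, 75 and 66.8 CPM with BPS (log2 change 0.52 ± 0.05). Both groups of libraries were apart at these genes. Bambi, a decoy receptor, and Atoh8, a helix-loop-helix factor, had log2 changes of 0.37 ± 0.04 and 0.98 ± 0.11. The ligand gene Bmp4 itself had a log2 change of 0.05 (adjusted p = 0.388), a value looked up after the targets.

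Other developmental pathways had members on both sides. Of 18 WNT targets 7 were higher and 3 lower (38.9% and 16.7%, against 15.4% and 11.3% of all tested genes). Nkd1, a feedback inhibitor of WNT, stood at 20.8, 24.2 and 23.0 CPM in vehicle and at 37.8, 44.9 and 41.6 CPM with BPS, a log2 change of 0.87 ± 0.07 with the groups apart. Lef1, a WNT effector, had one of 0.49 ± 0.06, and Znrf3, which removes WNT receptors, one of -0.28 ± 0.05. The 3 lower calls of that list went to 1 without vehicle replicate 1 or 2. Of 20 genes of FGF signalling and ERK feedback 7 were higher and 5 lower (35% and 25%). Fgf4 was at -0.51 ± 0.05 log2 and Fgf15 at 0.83 ± 0.11. Of 20 NODAL and TGF-beta genes 6 were higher and 6 lower (30% each). Tdgf1, the NODAL co-receptor, had a log2 change of -0.38 ± 0.03 and Tgfb1 one of 0.46 ± 0.04. The 6 higher NODAL and TGF-beta calls went to 3 without vehicle replicate 3. Of 15 LIF and STAT3 targets 2 were higher and 6 lower (13.3% and 40%), with Pim1 at -0.36 ± 0.04.

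Immediate early genes, which cells switch on within minutes of a signal, were mostly higher 8 h after BPS was removed. Of 21 tested, 13 were higher and 4 lower (61.9% and 19%, against 15.4% and 11.3% of all tested genes). The median log2 change was 0.21. The counts were 12 and 3 without vehicle replicate 1, and 5 and 3 with all 42 libraries in the fit. Fosb, a partner of JUN in the AP-1 factor, stood at 1.79, 1.96 and 1.47 CPM in vehicle and at 11.1, 7.92 and 9.31 CPM with BPS. It had the largest increase of the named genes, 2.41 ± 0.14 on the log2 scale or 5.33-fold (adjusted p = 3.53e-08). Jun stood at 86.8, 87.7 and 86.1 CPM in vehicle and at 110, 118 and 116 CPM with BPS. Junb stood at 98.8, 103 and 108 CPM in vehicle and at 131, 142 and 139 CPM with BPS. Both had smaller rises, of 0.40 ± 0.03 and 0.41 ± 0.04 log2, with the groups apart. Atf3, a stress-induced relative, had a log2 change of 0.76 ± 0.08. Ier3 went the other way, from 5.41 to 6.20 CPM in vehicle to 1.76 to 2.57 CPM with BPS (log2 change -1.42 ± 0.14). The table lists Ier3 in 3 rows, among which reads could be split, and the other rows had log2 changes of -1.34 (Ier3_1) and -1.43 (Ier3_2).

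Chaperone genes were higher in part. Of 31 genes of the unfolded protein and heat shock responses 13 were higher, 2 lower and 16 not called. These are 41.9% higher and 6.45% lower, against 15.4% and 11.3% of all tested genes. The median log2 change was 0.09. The higher count fell to 8 when BPS replicate 2, vehicle replicate 1 or vehicle replicate 3 was dropped, and 7 after upper quartile rescaling or with all 42 libraries in the fit. Hspa8, the constitutive HSP70 chaperone, was at 1905 to 1959 CPM in vehicle and at 2448 to 2518 CPM with BPS (log2 change 0.36 ± 0.03). Hsph1, its exchange factor, had a log2 change of 0.29 ± 0.03 and the cochaperones Dnaja1 and Dnajb1 changes of 0.23 ± 0.03 and 0.30 ± 0.04. The groups were apart at Hspa8. Of 26 genes of the integrated stress response 5 were higher and 7 lower (19.2% and 26.9%, against 15.4% and 11.3% of all tested genes). Of 24 p53 targets 4 were higher and 1 lower (16.7% and 4.17%). These counts went as low as 2 and 4 for the stress response when 1 library was left out, the 2 without vehicle replicate 2 (3 without BPS replicate 2) and the 4 without BPS replicate 3, vehicle replicate 2 or vehicle replicate 3. The 1 lower p53 target became 3 without BPS replicate 1 and 2 without BPS replicate 2 or 3. Crebrf, a regulator of the CREB3 stress factor, stood at 28.5, 31.7 and 29.9 CPM in vehicle and at 14.1, 14.7 and 14.8 CPM with BPS. This is a log2 change of -1.05 ± 0.06.

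Cell cycle genes were called in part, where all tested genes had 15.4% higher and 11.3% lower. Of 36 genes of DNA replication and G1/S 9 were lower (25%) and none higher, with a median log2 change of -0.04. After upper quartile rescaling 16 were lower. Without BPS replicate 1, 3 of them were higher. Pole, the leading-strand polymerase, stood at 146, 149 and 146 CPM in vehicle and at 116, 118 and 118 CPM with BPS (log2 change -0.33 ± 0.03), with the groups apart. Of 30 mitotic genes 10 were higher (33.3%) and none lower, with a median log2 change of 0.07. The counts became 7 higher and 2 lower after upper quartile rescaling, and 1 was lower without BPS replicate 1. Cenpe, a kinetochore motor, had a log2 change of 0.28 ± 0.03 and the mitotic kinase gene Plk1 one of 0.24 ± 0.03. Of 15 D-type cyclin and CDK inhibitor genes 3 were higher and 3 lower (20% each). The 3 lower calls went to 0 without vehicle replicate 2 or 3 and to 1 without BPS replicate 2.

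Of the enzymes that oxidise 5-methylcytosine, Tet1 and Tet2 were lower and Tet3, at 0.12 ± 0.06 log2 (adjusted p = 0.117), did not pass the test. Tet2 stood at 141, 139 and 141 CPM in vehicle and at 98.7, 88.1 and 93.9 CPM with BPS (log2 change -0.59 ± 0.04, adjusted p = 8.98e-08). Tet1 stood at 310, 317 and 310 CPM in vehicle and at 236, 226 and 231 CPM with BPS (log2 change -0.43 ± 0.03). Both were lower in every BPS library than in any vehicle library. The de novo methyltransferase gene Dnmt3a had a log2 change of 0.33 ± 0.04 and Uhrf2 one of 0.23 ± 0.04. Of the 19 tested genes of DNA methylation and demethylation 4 were higher and 3 lower (21.1% and 15.8%, against 15.4% and 11.3% of all tested genes), and 7 were lower after upper quartile rescaling. Of 30 histone lysine methylation genes 9 were higher and 9 lower (30% each), and the higher count was 5 without BPS replicate 3. Jarid2, a PRC2 subunit, had a log2 change of -0.30 ± 0.03. Of 42 imprinted genes 13 were higher and 6 lower (31% and 14.3%). The higher count was 7 without vehicle replicate 1 or 3 and 8 without BPS replicate 2 or after upper quartile rescaling. H19, the maternally expressed growth-restraining RNA, was at 1201 to 1235 CPM in vehicle and at 1408 to 1534 CPM with BPS (log2 change 0.27 ± 0.03). Plagl1, a zinc finger gene of the imprinted network, had a log2 change of -0.41 ± 0.04 and Gnas one of 0.32 ± 0.04.

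The estrogen receptor genes, the best known targets of bisphenols, had few reads in these cells. Esr1, the gene of estrogen receptor alpha, had 3 to 8 reads in each library and the membrane estrogen receptor gene Gper1 had 1 to 3. Esr2, the gene of estrogen receptor beta, had 8, 4 and 5 reads in vehicle and 2, 0 and 3 with BPS, so its groups did not overlap. All 3 were under the filter. In the limma fit with no filter none was called, at an adjusted p of 0.804 for Esr1, 0.155 for Esr2 and 0.313 for Gper1. Of 16 tested steroid and xenobiotic receptor genes 6 were higher and 2 lower (37.5% and 12.5%, against 15.4% and 11.3% of all tested genes). Pgr, the progesterone receptor gene and a classical estrogen target, stood at 8.51, 9.59 and 9.05 CPM in vehicle and at 12.2, 13.5 and 13.9 CPM with BPS. Its log2 change of 0.54 ± 0.08 was larger than the spread between replicates, and its call was lost with all 42 libraries. Ahr, the gene of the xenobiotic sensor, had a log2 change of -0.36 ± 0.07. Of 6 tested targets of that sensor 3 were lower (50%) and none higher, with Tiparp, its feedback repressor, at -0.30 ± 0.04. Of the membrane receptors Gprc5a had a log2 change of -0.30 ± 0.05 and Gpr161, a ciliary receptor, one of 0.46 ± 0.10, a call lost with no filter. Gprc5b was at -0.11 ± 0.09 (adjusted p = 0.397), Gpr107 at 0.05 ± 0.04 (adjusted p = 0.411) and Gpr89 at 0.17 ± 0.06 (adjusted p = 0.035), the last lost in several alternatives. Of 16 estrogen receptor cofactors and targets 4 were higher and 4 lower (25% each). The higher count was 7 without BPS replicate 1 and the lower 2 without vehicle replicate 2. Of 26 NRF2 and glutathione genes 8 were lower (30.8%) and 1 higher (3.85%), the latter 2 without BPS replicate 1 or 2.

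Few members of the following groups were called. Of 78 cytosolic ribosomal protein genes 1 was higher (Rps27) and 1 lower (Rps28), with a median log2 change of -0.03 and 59 negative estimates, but 29 were lower without BPS replicate 1 and 9 after upper quartile rescaling. Of 42 tested replication-dependent histone genes 1 was higher, H2ac23 at 0.31 ± 0.04 log2, and 3 without vehicle replicate 1, while 1 was lower without BPS replicate 1. The 8 rRNA-type transcripts had a median log2 change of -0.36 with none called, and 1 was higher without vehicle replicate 1. Over all 52 lists 1072 genes were tested and 399 called (37.2%, against 26.6% of all genes), and 135 were called with all 42 libraries in the fit.

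BPS at the same 1 µM was also given to iPSCs, in sealed flasks and with 24 h between exposure and harvest, and PGCLCs were derived from iPSCs exposed in a separate experiment. The cell type and these differences in handling cannot be told apart. In the iPSCs of the dose series 723 of 15742 genes were called (4.59%), 496 higher and 227 lower. In PGCLCs derived from exposed iPSCs none of 16268 was called by limma (0%), with 2578 at an unadjusted p under 0.05. The direct PGCLC and the iPSC comparison share no library, and of 14799 genes tested in both, 256 were called in both, which is 6.2% of the 4127 direct calls and 37.4% of the 685 iPSC calls. Over all genes tested in both, 27.9% were called in direct PGCLCs and 4.63% in iPSCs. Of these 88 were higher in both, 41 lower in both, 93 lower in PGCLCs and higher in iPSCs, and 34 higher in PGCLCs and lower in iPSCs.

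The difference between the responses was tested as a contrast of contrasts, on 12 libraries at a time. Against iPSCs it was called at 2325 of 17366 genes (13.4%), 1153 with a higher and 1172 with a lower response in PGCLCs, or 567 and 1628 after upper quartile rescaling. That count fell to 1533 when BPS replicate 2 was left out and to 1546 when vehicle replicate 3 was, and rose to 3769 when the iPSC BPS replicate 2 was. Against PGCLCs derived from exposed iPSCs it was called at 333 of 16894 genes (1.97%), 144 higher and 189 lower, or 117 and 287 after upper quartile rescaling. Each directly exposed library weighed on that count, which was 160, 173 and 113 without BPS replicates 1, 2 and 3 and 137, 119 and 106 without vehicle replicates 1, 2 and 3. Of the derived libraries, leaving out BPS replicate 1 or 2 gave 203 or 195 calls, and leaving out vehicle replicate 2 or 3 gave 769 or 156.

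Beside the list counts that follow, a difference in either direction was called at 13.4% of all genes against iPSCs and 1.97% against derived PGCLCs. For the hypoxia list the median log2 change was -0.62 in directly exposed PGCLCs, 0.04 in iPSCs and 0.03 in derived PGCLCs. The response was called lower in direct exposure at 12 of 17 members against iPSCs, 11 or 12 when 1 library was left out, and at 9 of 17 against derived PGCLCs, 7 to 11 when 1 library was left out. For the glycolysis genes the medians were -0.13, -0.01 and -0.09. Their response was lower at 9 of 23 and higher at 1 against iPSCs. Against derived PGCLCs it was lower at 3 of 23, and at 1 without vehicle replicate 2 or 3. For the clock genes the medians were -0.24, 0.01 and 0.16, and the response was lower at 10 of 19 and higher at 1 against iPSCs and lower at 7 of 19 against derived PGCLCs, the latter 4 without BPS replicate 3, vehicle replicate 2 or vehicle replicate 3. Bhlhe40 shows both. Its log2 change was -0.95 in direct exposure, 0.33 in iPSCs and 0.19 in derived PGCLCs, and the differences were -1.28 ± 0.10 and -1.15 ± 0.11. In derived PGCLCs it stood at only 49.8, 47.9 and 49.7 CPM in vehicle and at 53, 62.5 and 53.7 CPM after BPS, so the directly exposed vehicle cells, at 168 to 176 CPM, were the group with the most Bhlhe40. The naive genes did not separate the 2 kinds of PGCLC in this way. Their medians were -0.28, -0.0046 and -0.40, with a lower response at 11 of 17 members and a higher one at 1 against iPSCs, none with all 42 libraries in the fit, and at 1 of 17 against derived PGCLCs. That 1 member, Tbx3, at -0.08 in direct and 0.20 in derived PGCLCs, was not called without several single libraries. Summed naive genes were at 3921, 2986 and 3743 CPM in derived vehicle libraries and at 2806, 2437 and 3445 CPM after BPS, which overlapped. Derived vehicle replicate 2 was thus below every directly exposed BPS library, at 3301 to 3595 CPM. The germ cell, mesoderm and BMP lists had medians of -0.23, 0.31 and 0.26 in direct exposure, of -0.09, 0.19 and 0.10 in iPSCs and of -0.29, 0.33 and 0.27 in derived PGCLCs, where no member was called, and no member of these 3 lists was called for a difference between the 2 kinds of PGCLC. Mesoderm sums of derived PGCLCs overlapped, at 799.1, 1010 and 869.9 CPM in vehicle and 1217, 1197 and 911 CPM after BPS. BMP sums overlapped as well. Germ cell sums did not, at 2494 to 2582 CPM in vehicle and 1815 to 2232 CPM after BPS. The part of the spread between cultures in these medians was not tested. A p that misses the threshold does not show that the responses were alike, and 1 BMP target was called when derived vehicle replicate 2 was left out. Mitotic genes had a higher response in direct exposure at 17 of 30 members against iPSCs, 12 to 24 when 1 library was left out. That count was 8 with all 42 libraries in the fit and 9 after upper quartile rescaling. Against derived PGCLCs it was 3 of 30, and 0 to 6 when 1 library was left out. It fell to 0 without vehicle replicate 1 or 3, BPS replicate 3 or derived vehicle replicate 3. Chaperones had a higher response at 11 of 31 against iPSCs, which went to 7 without vehicle replicate 1 or after upper quartile rescaling and to 18 without iPSC BPS replicate 2, and at 4 of 31 against derived PGCLCs, 2 without vehicle replicate 3.

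**Figure D4:**
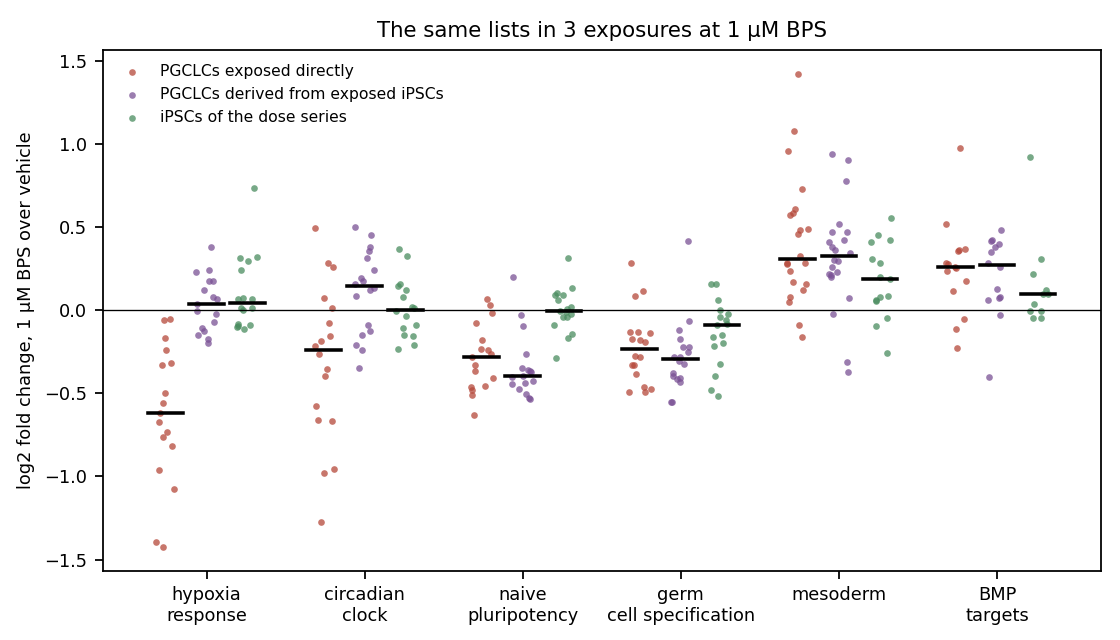
Log2 fold change with 1 µM BPS over vehicle for the members of 6 lists that were tested in directly exposed PGCLCs, in the 3 exposures (red, PGCLCs exposed directly; purple, PGCLCs derived from exposed iPSCs; green, iPSCs of the dose series), with the median of the plotted genes as a black bar. The hypoxia and clock medians lie below 0 in direct exposure and at or above 0 in the other exposures, the naive median lies below 0 in both kinds of PGCLC and at -0.0046 in iPSCs, and in all 3 exposures the germ cell median lies below 0 and the mesoderm and BMP medians above 0.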

How the data were processed

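RNA was measured by strand-specific poly(A) sequencing in 42 libraries, of which the 6 directly exposed PGCLC libraries were used here, with 12 libraries of iPSCs and derived PGCLCs for the differences in response. The authors deposited 1 table of log2 CPM per gene: per the study's methods, reads were checked with FastQC, aligned and counted with Rsubread against mm10, and scaled with edgeR by the trimmed mean of M-values. A constant of 0.0313 CPM had been added before the log. From these log2 values whole reads were recovered (100% of values within 0.05 reads of a whole number), which gave the counted reads per library; precision is limited by 3 replicates per group.

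Genes with at least 0.5 CPM in at least 3 libraries of a fit were tested with limma 3.58.1 (linear model on the deposited log2 values, moderated variance with a mean-variance trend, two-sided, Benjamini-Hochberg adjusted over all genes tested, called at 0.05), in R 4.3.3. The design assumed a log scale and needed no change. Fold changes are on the log2(CPM + 0.0313) scale and understate the change of low genes. Differences between exposures were contrasts of contrasts. The fitting script was tested on simulated data. Gene lists, 52 in all, were written by hand, and 66 of their symbols were matched through RefSeq synonyms. Their members, like the comparison itself, were chosen with earlier results of these data known, so list counts are descriptions with no test of the list. Genes named are the 10 largest increases and 10 largest decreases with a mean of at least 5 CPM and groups that do not overlap, for each list described its 4 members lowest in adjusted p, germ cell and sort markers, bisphenol receptors, and for each difference the 5 called genes lowest in adjusted p with a mean of at least 5 CPM. Alternatives were other scalings, added constants, filters, limma-voom on the recovered reads, a replicate block, all 42 libraries in the fit and leaving out each library; a covariate for the share of rRNA-type reads and library quality weights were added after seeing the data. Rows whose symbol carries a copy suffix, 1222 in all, can share reads with their namesake. Only 2 mitochondrial genes are in the table, and the Sertoli and granulosa libraries entered only the fit over all 42.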

Additional observations from a re-analysis of the deposited data

Results flagged for a closer look

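The response to 1 µM BPS differed between directly exposed PGCLCs and iPSCs at 2325 genes, and between directly exposed PGCLCs and PGCLCs derived from exposed iPSCs at 333 genes, by the test of the difference itself (limma, contrast of contrasts, adjusted p at 0.05). The genes with the smallest adjusted p and a mean of at least 5 CPM are given here.

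Against iPSCs, the difference in log2 response was -1.15 ± 0.08 (SE) for Crebrf (adjusted p = 3.75e-06), which was at 14.6 CPM in all 3 iPSC vehicle libraries and at 15.2, 15.6 and 16.2 CPM in iPSCs given BPS. For Ak4, a mitochondrial adenylate kinase and HIF1 target, it was -0.895 ± 0.07. Ak4 stood at 39.6, 42.7 and 41.6 CPM in vehicle PGCLCs and at 25.1, 27.6 and 24.3 CPM in exposed ones, and at 247, 249 and 248 CPM in vehicle iPSCs and 282, 288 and 290 CPM in exposed iPSCs. The groups were thus apart in both cell types and in opposite directions. Bhlhe40 had a difference of -1.28 ± 0.10 and Kdm3a one of -0.63 ± 0.05. Mme, the gene of the membrane metalloendopeptidase neprilysin, had a difference of -0.813 ± 0.07, with a log2 change of -0.40 in PGCLCs and 0.41 in iPSCs.

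Against PGCLCs derived from exposed iPSCs, Bhlhe40 again differed, by -1.15 ± 0.11 (adjusted p = 0.00053). Ahdc1, a DNA-binding protein gene, differed by 0.64 ± 0.06. It stood at 81.0, 83.7 and 81.5 CPM in direct vehicle and at 126, 123 and 121 CPM with BPS, and at 139 to 150 CPM in derived vehicle libraries and 134 to 144 CPM after BPS. The direct vehicle libraries were the lowest of the 4 groups. Rlf, a zinc finger gene, differed by -0.469 ± 0.05. Cirbp, the cold-inducible RNA-binding protein gene, differed by -0.797 ± 0.08 and fell from 91.1 to 94.0 CPM in direct vehicle to 58.2 to 60.4 CPM with BPS, while derived vehicle libraries were at 48.6 to 54.8 CPM. Here the direct vehicle libraries were the highest. Nfya_1, between which and the row Nfya reads could be split, differed by 0.522 ± 0.06, from 33.2 to 34.1 CPM in direct vehicle to 45.3 to 47.3 CPM with BPS, with derived libraries at 52.8 to 57.5 CPM. The part of cell type, handling and experiment in these differences cannot be told apart.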

How the results depend on the processing

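The number of genes called in the direct comparison stayed within 1.5 times of 4354 in all but 2 of 17 alternatives: 1630 with all 42 libraries in the fit and 2705 with no filter. With 1 library left out it ranged from 3053 without vehicle replicate 2 to 5091 without BPS replicate 1. With all 42 libraries the median standard error rose from 0.062 to 0.0973, and the list members called fell from 399 to 135. The difference against iPSCs, 2325 genes, was 1282 with all 42 libraries and 1533 to 3769 with 1 library left out. The difference against derived PGCLCs, 333 genes, was 138 with the replicate block and 106 to 769 with 1 library left out. Shared replicate numbers did not pair the samples: same-numbered vehicle and BPS libraries had correlations of their deviations of -0.4, -0.064 and -0.22, so the block is given only here, with 4453 calls in the direct comparison and 1869 in the difference against iPSCs. Of the named genes, only some that were not called changed sign, here with the lowest and highest log2 change when 1 library was left out (the lowest without vehicle replicate 2, the highest without vehicle replicate 1): AY036118 (-1.1 to 0.585), Lars2 (-1.48 to 0.96), Rpph1 (-0.597 to 0.504), Rn28s1 (-1.5 to 1.13), mt-Rnr1 (-1.03 to 0.421), H3c3 (-1.07 to 0.062) and H1f2 (-0.482 to 0.0142). With quality weights AY036118 (0.192), Lars2 (0.508), Rpph1 (0.173), Rn28s1 (0.653) and mt-Rnr1 (0.0186) also did, and with the rRNA-type covariate Lars2 (0.000366), Rpph1 (0.0232) and Rn28s1 (0.102). The cause was not tested. The 3 replicates of 1 cell line limit every call, and genes under the filter, such as Esr1, were tested only in the fit with no filter.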

Other observations

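Genes that mark the developmental distance between iPSCs and PGCLCs were described in the direct comparison, using libraries of a separate experiment to choose them and with no test. Of 466 tested genes that were at least 4-fold higher in vehicle iPSCs than in PGCLCs derived from vehicle iPSCs, 152 were lower with BPS in directly exposed PGCLCs (32.6%, against 11.3% of all tested genes) and 6 were higher, with a median log2 change of -0.27. Of 1694 tested genes at least 4-fold higher in those PGCLCs, 406 were higher with BPS (24%, against 15.4%) and 80 were lower (4.72%), with a median of 0.11. This split was chosen after the lists had been seen.

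Antiviral and interferon-response genes leaned upward, with a median log2 change of 0.20. Of 22 tested members 9 were higher and 4 lower (40.9% and 18.2%, against 15.4% and 11.3% of all tested genes). Parp10, a mono-ADP-ribosyltransferase, stood at 38.6, 38.8 and 39.3 CPM in vehicle and at 48.0, 50.9 and 50.3 CPM with BPS (log2 change 0.35 ± 0.04), and the transcription factor gene Irf2 had a log2 change of 0.80 ± 0.11. The groups were apart at both. The higher count was 5 without vehicle replicate 1 or 2 and 1 with all 42 libraries in the fit. Of 11 tested fibroblast and feeder genes 3 were higher (27.3%) and none lower (5 higher without BPS replicate 1). Pdgfrb, the PDGF receptor beta gene, and Twist1, a mesenchymal transcription factor gene, had log2 changes of 0.60 ± 0.06 and 0.56 ± 0.06. Of 40 phosphoinositide kinase and phosphatase genes 11 were higher and 5 lower (27.5% and 12.5%). The lower count was 2 without vehicle replicate 3, and Inpp5e, a ciliary phosphatase gene, was at 0.36 ± 0.05 log2. Genes called lower were longer in median than all tested genes, at 28.8 kb against 21.2 kb, and genes called higher had a median of 23.7 kb.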
